A study of Mus musculus with 12 samples.

Results

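The collagen genes are the genes that encode the chains of the collagens, and they were described here across 12 RNA-seq libraries of mouse heart cells. The members were all 44 genes of the deposited expression table whose symbol consists of Col, a type number, the letter a and a chain number, out of 23423 genes in that table. They were sorted by the structure their proteins form: 11 fibrillar chains, 6 basement membrane chains (type IV), 3 network chains (types VIII and X), 6 beaded filament chains (type VI), 9 fibril-associated (FACIT) chains, 2 multiplexins, 4 transmembrane collagens and 3 others. For the tests, 43 of the 44 passed a filter of at least 1 CPM (reads per 1000000 assigned reads) in 2 or more libraries. Col6a4, the member left out, lay between 0.305 and 0.939 in all 12, given as CPM divided by a library factor.

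The cells came from CD1 mouse pups, and each of 6 groups had 2 libraries. Postnatal day 1.5 is the age recorded for the fresh fibroblasts and the cardiomyocyte preparation, and none is recorded here for the cultures. Fresh cardiac fibroblasts were sorted on Thy1, a fibroblast surface protein, with magnetic beads, and were not cultured. The cardiomyocyte preparation was made from hearts with a commercial kit for neonatal cells, also uncultured. The other 4 groups were cardiac fibroblasts in culture at day 3 after transduction, all of them transduced with the retroviral vector pMXs-puro. Day 3 below counts from transduction, not from the start of culture. Control cultures received the control vector, called lacZ in the titles and an empty vector elsewhere in the labels. MGT cultures received Mef2c, Gata4 and Tbx5, the 3 transcription factors used to turn fibroblasts into cardiomyocyte-like cells. The last 2 groups received MGT together with a lentivirus, carrying either a non-targeting hairpin (shNT) or a hairpin against Ptbp1 (shPtbp1), which encodes a splicing repressor. The study made these bulk libraries to accompany single-cell experiments and to look at splicing after Ptbp1 loss, from polyadenylated RNA.

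Collagens are trimers of chains with long Gly-X-Y repeats. The fibrillar types I, III and V build the tensile network of the heart's interstitium, and most of it is made by fibroblasts. Type IV collagen forms the sheet-like scaffold of basement membranes around cardiomyocytes and vessels, type VI forms beaded filaments next to it, and type VIII forms short-chain networks found in vessel walls and remodelling tissue. FACIT collagens sit on the surface of fibrils, and the multiplexins XV and XVIII are proteoglycans of basement membrane zones.

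All values below are CPM divided by a library factor (scaled CPM), and each pair of values gives replicate 1 and replicate 2. A bare signed or decimal value in parentheses after a gene is its log2 fold change, on the log2(scaled CPM + 0.5) scale. The labels do not tie replicates to separate animals or cultures, so every p-value here measures only how far these libraries spread, which may be technical. Assigned reads ranged from 49320858 to 94005212 per library, so 1 read was worth 0.0106 to 0.0203 CPM. Ptbp1, the target of the hairpin, read 488 and 491 in fresh fibroblasts, 419 and 421 in the cardiomyocyte preparation, 354 and 361 in control cultures, 364 and 379.7 with MGT, 359.8 and 365 after MGT plus shNT, and 81.1 and 78.5 after MGT plus shPtbp1. It fell with its hairpin in both libraries, one of which has a source label that names Ptbp2 instead (log2 fold change -2.18, SE 0.03, adjusted p = 8.25e-19, limma). The 7 fibroblast markers were Pdgfra, Tcf21, Thy1, Ddr2, Dpt, Mfap5 and Pdgfrb, so they include Thy1, on which the fresh fibroblasts were sorted. Their sum was 2472 to 2492 in fresh fibroblasts and 1223 to 1228 in the cardiomyocyte preparation. Summed over 8 cardiomyocyte markers, the range was 1540 to 1566 in fresh fibroblasts and 15072 to 15871 in the cardiomyocyte preparation, and no marker of either list was at 0 in every library. In bulk RNA, fewer cells of a type and less RNA per cell cannot be told apart.

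Promoter sequence is given for 4 members that carry the main differences. Col8a1 had the largest increase from fresh fibroblasts to control cultures, among collagens that reached 10 scaled CPM in either of these groups. Col3a1 and Col15a1 are abundant collagens that fell in culture, and Col10a1 is the collagen that rose most with MGT. Col8a1 lies on chromosome 16, minus strand (chr16:57624258-57754737), and Col3a1 on chromosome 1, plus strand (chr1:45311538-45349706). Col15a1 lies on chromosome 4, plus strand (chr4:47208161-47313167), and Col10a1 on chromosome 10, plus strand (chr10:34389981-34397085), inside Nt5dc1, which is transcribed from the opposite strand. Gene positions are from GENCODE vM21 on GRCm38. Each sequence is the 250 bases before the gene's start from RefSeq on GRCm38.p6, 5′ to 3′ on the gene's strand, with capitals marking TATAAA or GGGCGG on either strand.
Col8a1 (chr16:57754738-57754987, minus strand): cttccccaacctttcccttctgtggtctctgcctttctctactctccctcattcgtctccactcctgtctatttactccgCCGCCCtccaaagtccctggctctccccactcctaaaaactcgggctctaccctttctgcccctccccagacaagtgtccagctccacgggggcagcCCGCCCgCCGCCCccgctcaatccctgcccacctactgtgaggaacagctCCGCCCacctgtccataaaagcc
Col3a1 (chr1:45311288-45311537, plus strand): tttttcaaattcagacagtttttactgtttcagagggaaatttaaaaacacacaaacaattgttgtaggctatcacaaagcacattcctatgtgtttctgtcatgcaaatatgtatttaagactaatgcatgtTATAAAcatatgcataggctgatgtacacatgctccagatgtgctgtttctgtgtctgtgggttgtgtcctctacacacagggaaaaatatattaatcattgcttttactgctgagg
Col15a1 (chr4:47207762-47208011, plus strand): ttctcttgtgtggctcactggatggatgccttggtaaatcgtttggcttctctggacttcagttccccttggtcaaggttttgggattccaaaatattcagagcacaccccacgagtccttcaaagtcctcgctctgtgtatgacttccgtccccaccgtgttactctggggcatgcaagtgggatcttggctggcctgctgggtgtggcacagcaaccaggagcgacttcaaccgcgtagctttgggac
Col10a1 (chr10:34389731-34389980, plus strand): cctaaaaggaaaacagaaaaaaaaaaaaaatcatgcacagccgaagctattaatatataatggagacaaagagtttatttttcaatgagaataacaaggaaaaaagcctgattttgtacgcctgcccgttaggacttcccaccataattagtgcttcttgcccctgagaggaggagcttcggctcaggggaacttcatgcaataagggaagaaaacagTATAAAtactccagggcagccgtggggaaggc
The Col8a1 window held GGGCGG, the core of the Sp1 site, 4 times and no TATAAA. The Col3a1 window held TATAAA once, 117 bases before the start, and the Col10a1 window held it once, 32 bases before the start. No motif searched was found in the Col15a1 window, which ends before a RefSeq start that differs from the GENCODE start. Windows were found for 35 of the 44 collagen genes (38 windows). GGGCGG occurred on either strand in 57.9% of these windows and in 32.7% of all 32851 windows, TATAAA in 13.2% and 12.4%, and CCAAT in 34.2% and 33.8%. The GATA core AGATAA was in 5.26% of the collagen windows and 9.99% of all, the T-box core AGGTGT in 5.26% and 11.8%, and the MEF2 motif in 2.63% and 2.92%. These matches describe letters in the windows, and no binding was measured.

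**Figure D1:**
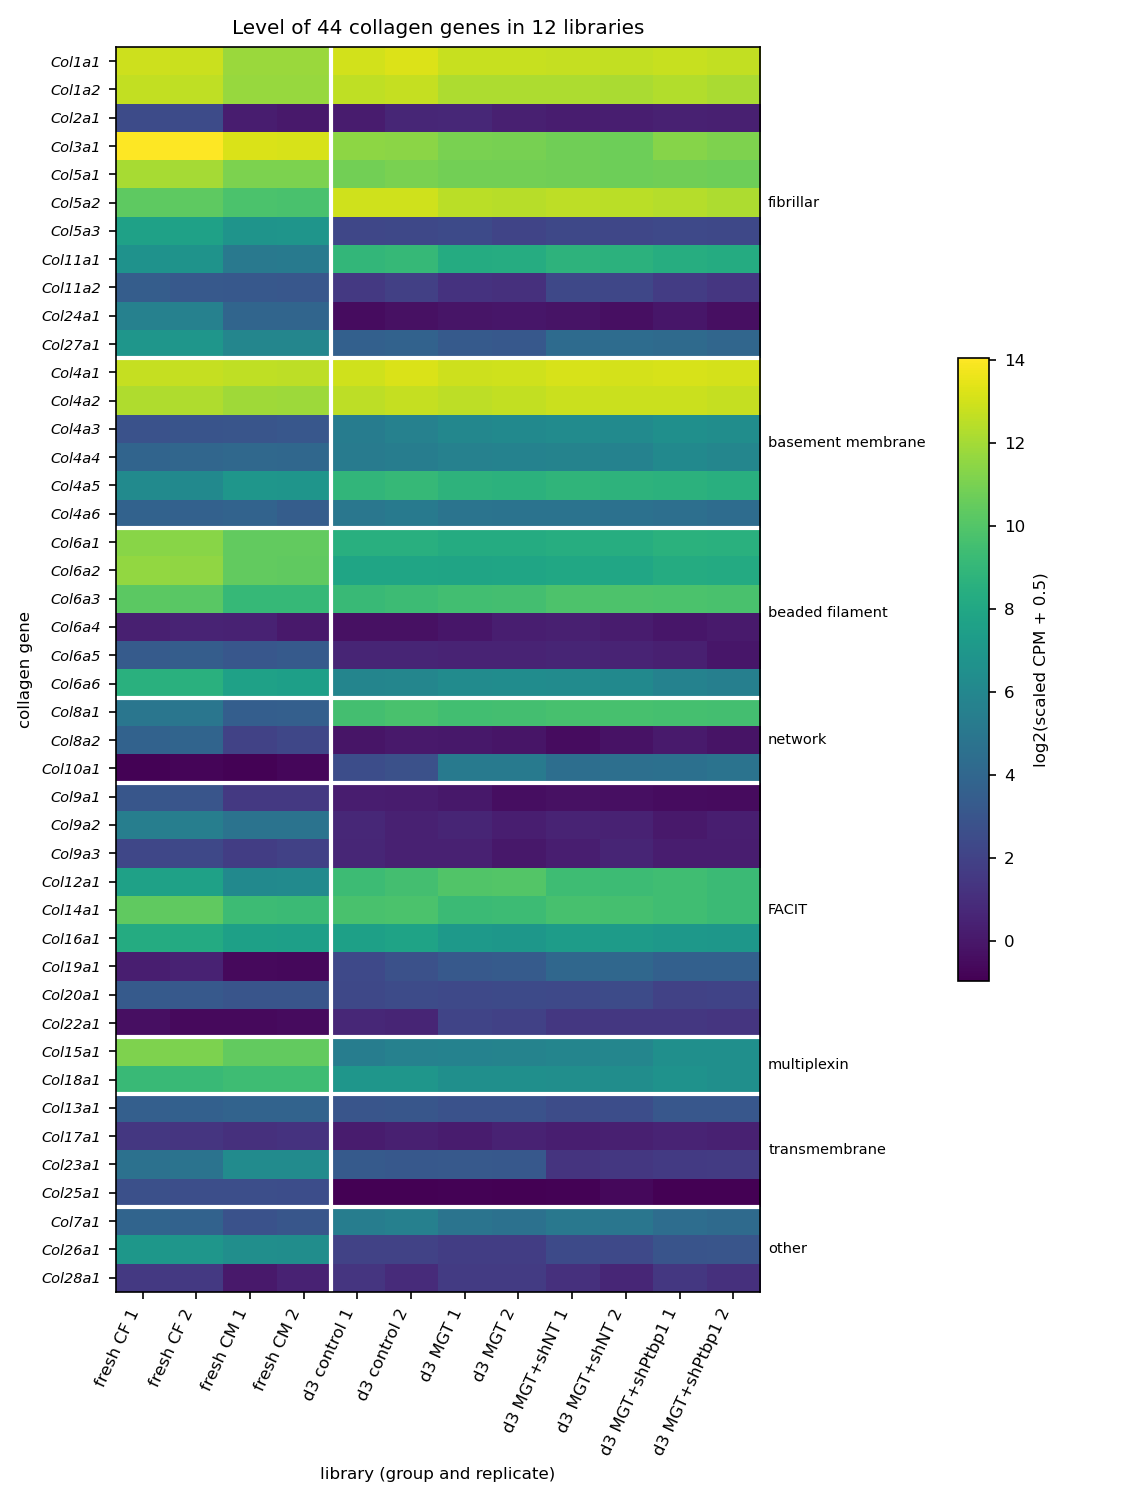
Heat map of the 44 collagen genes (vertical axis, by structural class) in the 12 libraries (horizontal axis, by group), coloured by log2(scaled CPM + 0.5). All 6 type IV genes were higher in the 8 day 3 libraries than in the 4 fresh ones, while Col6a1, Col6a2 and Col15a1 were lower in all 8.

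Collagen transcripts took 6.44% and 6.29% of the assigned reads in fresh fibroblasts, 3.79% and 3.75% in the cardiomyocyte preparation, and 3.86% to 4.94% in the 8 day 3 libraries. The fresh fibroblast libraries thus lay above all others in this share. In its highest library, a member reached at least 1000 scaled CPM in 13 cases, 100 to 1000 in 9, 10 to 100 in 13, and under 10 in 9. The group with the highest mean was fresh fibroblasts for 24 members, control cultures for 7, MGT cultures for 4, and the other 3 groups for 3 each. These were Col13a1, Col18a1 and Col23a1 in the cardiomyocyte preparation, Col4a1, Col4a3 and Col4a4 with MGT and shPtbp1, and Col19a1, Col4a2 and Col8a1 with MGT and shNT. The same counts over all genes were not computed, and some highest means were close to the next. Col4a1 stood at 8815 ± 398 with shPtbp1 and 8681 ± 188 with shNT (mean ± SD, n = 2). Col8a1 stood at 822 ± 4.30 with shNT and 796 ± 69.5 in control cultures.

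**Figure D2:**
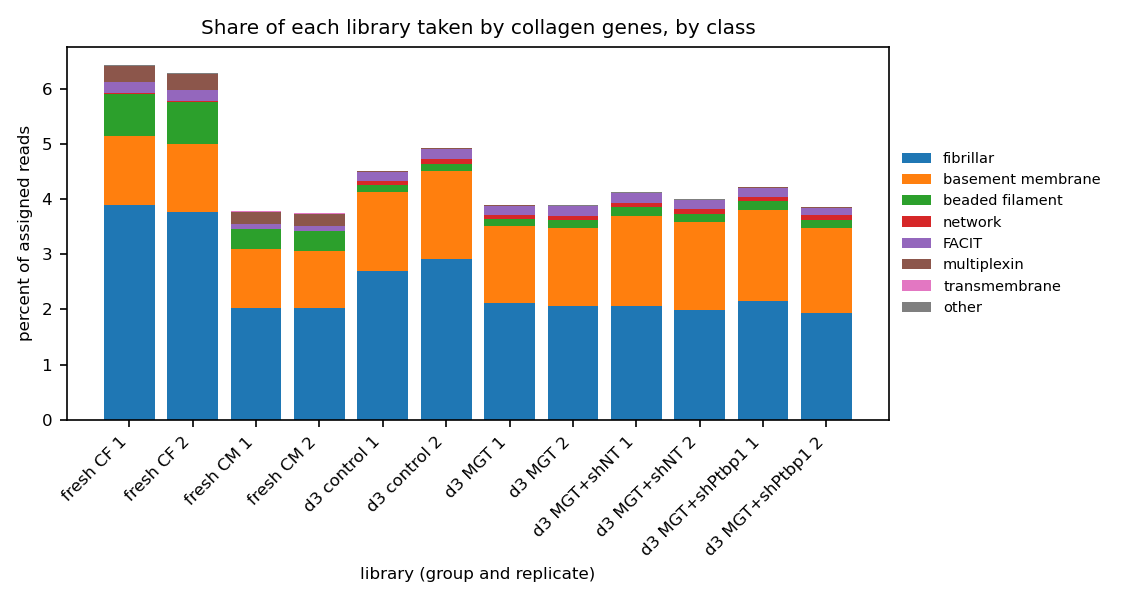
Stacked bars of the percent of assigned reads (vertical axis, from 0) taken by each collagen class in each of the 12 libraries. Fibrillar collagens took 3.9% and 3.78% in fresh fibroblasts and at most 2.91% elsewhere, and beaded filament collagens took 0.776% and 0.771% there against 0.121% and 0.127% in control cultures.

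The fibrillar chains took the largest share of collagen reads. Col1a1, the alpha 1 chain of type I collagen, read 7632 and 7248 in fresh fibroblasts, 3511 and 3559 in the cardiomyocyte preparation, 8217 and 9830.0 in control cultures, 7143 and 6992 with MGT, 6797 and 6469 after MGT plus shNT, and 7000.1 and 6406 after MGT plus shPtbp1. Col1a2, its partner in the type I trimer, read 6366 and 6240.2 in fresh fibroblasts, 3436 and 3429.9 in the cardiomyocyte preparation, 6125 and 6718 in control cultures, 4721 and 4615 with MGT, 4605 and 4402 after MGT plus shNT, and 5100.3 and 4527 after MGT plus shPtbp1. For both, the cardiomyocyte preparation was lowest, and for Col1a1 the control cultures were highest. Col3a1, the single chain of type III collagen, read 16786 and 16357 in fresh fibroblasts, 9225 and 9049 in the cardiomyocyte preparation, 2839.6 and 2811 in control cultures, 2063 and 2004 with MGT, 1751 and 1687 after MGT plus shNT, and 2579 and 2222 after MGT plus shPtbp1. Every day 3 library of Col3a1 lay below every fresh one, and among the day 3 libraries the control cultures were highest and the shNT cultures lowest. Col5a1, a type V chain that starts fibrils, read 4247 and 4178 in fresh fibroblasts, 2117 and 2123 in the cardiomyocyte preparation, 1833 and 2093 in control cultures, 1799 and 1825 with MGT, 1769.7 and 1693 after MGT plus shNT, and 1798 and 1663 after MGT plus shPtbp1. Col5a2, its partner chain, read 1277 and 1263 in fresh fibroblasts, 873 and 850.1 in the cardiomyocyte preparation, 7768 and 8013 in control cultures, 5629 and 5579 with MGT, 5859 and 5741 after MGT plus shNT, and 5355 and 4739 after MGT plus shPtbp1. The pair thus moved in opposite directions between fresh and cultured fibroblasts, with no overlap between those groups for either gene. Fresh fibroblasts and control cultures did not overlap in 42 of the 43 tested members.

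The basement membrane chains took the next largest share. Col4a1 read 6795 and 6689 in fresh fibroblasts, 6314 and 6063 in the cardiomyocyte preparation, 7958 and 9203 in control cultures, 7640.0 and 7791 with MGT, 8814 and 8548 after MGT plus shNT, and 9097 and 8533 after MGT plus shPtbp1. Col4a2 read 4846 and 4796 in fresh fibroblasts, 3766 and 3700.4 in the cardiomyocyte preparation, 5955 and 6697 in control cultures, 6029 and 6342 with MGT, 7425 and 7172 after MGT plus shNT, and 7238 and 6712 after MGT plus shPtbp1. All 8 day 3 libraries lay above all 4 fresh ones for both genes. Of the chains of type VI collagen, Col6a1 read 2681 and 2683 in fresh fibroblasts, 1392 and 1362 in the cardiomyocyte preparation, 355 and 364 in control cultures, 304 and 305 with MGT, 338 and 328 after MGT plus shNT, and 392 and 375 after MGT plus shPtbp1. Col6a2 read 3054 and 3028 in fresh fibroblasts, 1361 and 1351 in the cardiomyocyte preparation, 229.5 and 232 in control cultures, 219.9 and 229 with MGT, 251 and 245 after MGT plus shNT, and 305 and 299 after MGT plus shPtbp1. Col6a3, the long chain, read 1201 and 1192 in fresh fibroblasts, 545 and 541 in the cardiomyocyte preparation, 580.5 and 649 in control cultures, 718 and 761 with MGT, 918 and 908 after MGT plus shNT, and 902 and 844 after MGT plus shPtbp1. Col6a1 and Col6a2 were low in every day 3 library, whereas the day 3 libraries of Col6a3 lay between the cardiomyocyte preparation and the fresh fibroblasts.

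Among the smaller classes, Col8a1 of type VIII read 29.6 and 29.9 in fresh fibroblasts, 10.8 and 11.3 in the cardiomyocyte preparation, 747 and 845 in control cultures, 714 and 763 with MGT, 819 and 825 after MGT plus shNT, and 789.8 and 765 after MGT plus shPtbp1. Col10a1, the type X chain of growth plate cartilage, read 0.0418 and 0.0913 in fresh fibroblasts, 0.0388 and 0.118 in the cardiomyocyte preparation, 5.57 and 6.24 in control cultures, 36.3 and 37.2 with MGT, 21.9 and 22.6 after MGT plus shNT, and 23.3 and 25.9 after MGT plus shPtbp1. Its fresh values rest on 4 and 7 reads in fibroblasts and 2 and 9 in the cardiomyocyte preparation, and the MGT libraries were highest. Col15a1, the multiplexin of type XV, read 2224 and 2198 in fresh fibroblasts, 1388 and 1363 in the cardiomyocyte preparation, 42.2 and 48.2 in control cultures, 51.0 and 53.4 with MGT, 58.1 and 60.5 after MGT plus shNT, and 88.8 and 91.2 after MGT plus shPtbp1. Col18a1, the multiplexin whose C-terminal fragment is endostatin, read 586 and 582 in fresh fibroblasts, 670.4 and 662 in the cardiomyocyte preparation, 119.6 and 121 in control cultures, 90.4 and 91.6 with MGT, 88.5 and 82.7 after MGT plus shNT, and 101 and 92.1 after MGT plus shPtbp1. Both multiplexins were lower in every day 3 library than in every fresh one.

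The 4 fresh and 8 day 3 libraries were also compared by rank for all 44 members. In 14 members all day 3 libraries lay above all fresh ones, against 28.1% of all tested genes. In 22 members they lay below, against 29.9% of all tested genes, and in 8 the ranges overlapped. By class, the order was above for 6 of 6 basement membrane chains, 2 of 11 fibrillar chains, 2 of 3 network chains, 3 of 9 FACIT chains and Col7a1. It was below for 6 fibrillar, 4 beaded filament, 4 FACIT and all 4 transmembrane chains, and for both multiplexins, Col8a2 and Col26a1. Col25a1, a transmembrane collagen, went from 564 and 444 reads in fresh fibroblasts and 294 and 410 in the cardiomyocyte preparation to between 1 and 13 reads in each day 3 library. The other 8 members that stayed under 10 scaled CPM in every library were Col2a1, the main chain of cartilage, Col9a1, Col9a3, Col17a1, Col20a1, Col22a1, Col28a1 and Col6a4. Col2a1 was highest in fresh fibroblasts, at 4.95 and 5.07, and lay between 0.527 and 1.11 elsewhere.

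To compare levels between genes, CPM was divided by the length of each gene's merged exons in kb, and each gene was given as a share of the summed collagen level. In fresh fibroblasts Col3a1 made up 22.5% of this pool, Col1a1 15.1%, Col4a1 12% and Col4a2 9.70%. In control cultures Col1a1 made up 23.0%, Col4a1 19.2%, Col4a2 16.0% and Col5a2 13.8%, while Col3a1 had 4.83%. By merged exon length, Col5a2 had rank 11 among members in fresh fibroblasts and rank 4 in all 4 day 3 groups. Col3a1 had rank 1 and then rank 6 or 7. Type IV chains together held 21.9% in fresh fibroblasts, 31.1% in the cardiomyocyte preparation, 36.7% in control cultures, 40.8% with MGT, 44.7% after MGT plus shNT, and 44.3% after MGT plus shPtbp1. Beaded filament chains held 14.9% in fresh fibroblasts and 2.81% in control cultures, and multiplexins 5.75% and 0.406%. Fibrillar chains held between 45.5% and 54.8% in all 6 groups. These shares are means of 2 libraries with no test, and they shift with the length used. With the longest transcript, fibrillar chains held 60.0% and type IV 17.3% in fresh fibroblasts. The order of single genes shifted too, as Col1a2 has 12426 bases of merged exons but 5348 in its longest transcript. With the longest transcript of each gene, Col1a2 ranked above Col4a1 and Col4a2 in fresh fibroblasts. Col5a2 then fell below rank 4 with MGT and after MGT plus shPtbp1.

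The comparison of control cultures with fresh fibroblasts held the largest collagen differences. All 6 type IV genes, Col5a2, Col11a1, Col8a1 and Col10a1 rose, and all 5 tested type VI genes, both multiplexins, Col3a1, Col5a1 and all 4 transmembrane collagens fell. Of 43 members, 15 were called higher and 27 lower at a limma adjusted p under 0.05, with 1 not passing. Over all genes, 86.9% were called, 43.5% higher and 43.4% lower, so being called was the usual state of a gene here. The median member changed by -0.96 on the log2 scale, against 0.00 for all genes. At least a 2-fold increase was seen in 12 members and at least a 2-fold decrease in 21, while 29.8% of all genes changed by that much in either direction. Culture, time and the control virus changed together in this comparison and cannot be told apart.

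**Figure D3:**
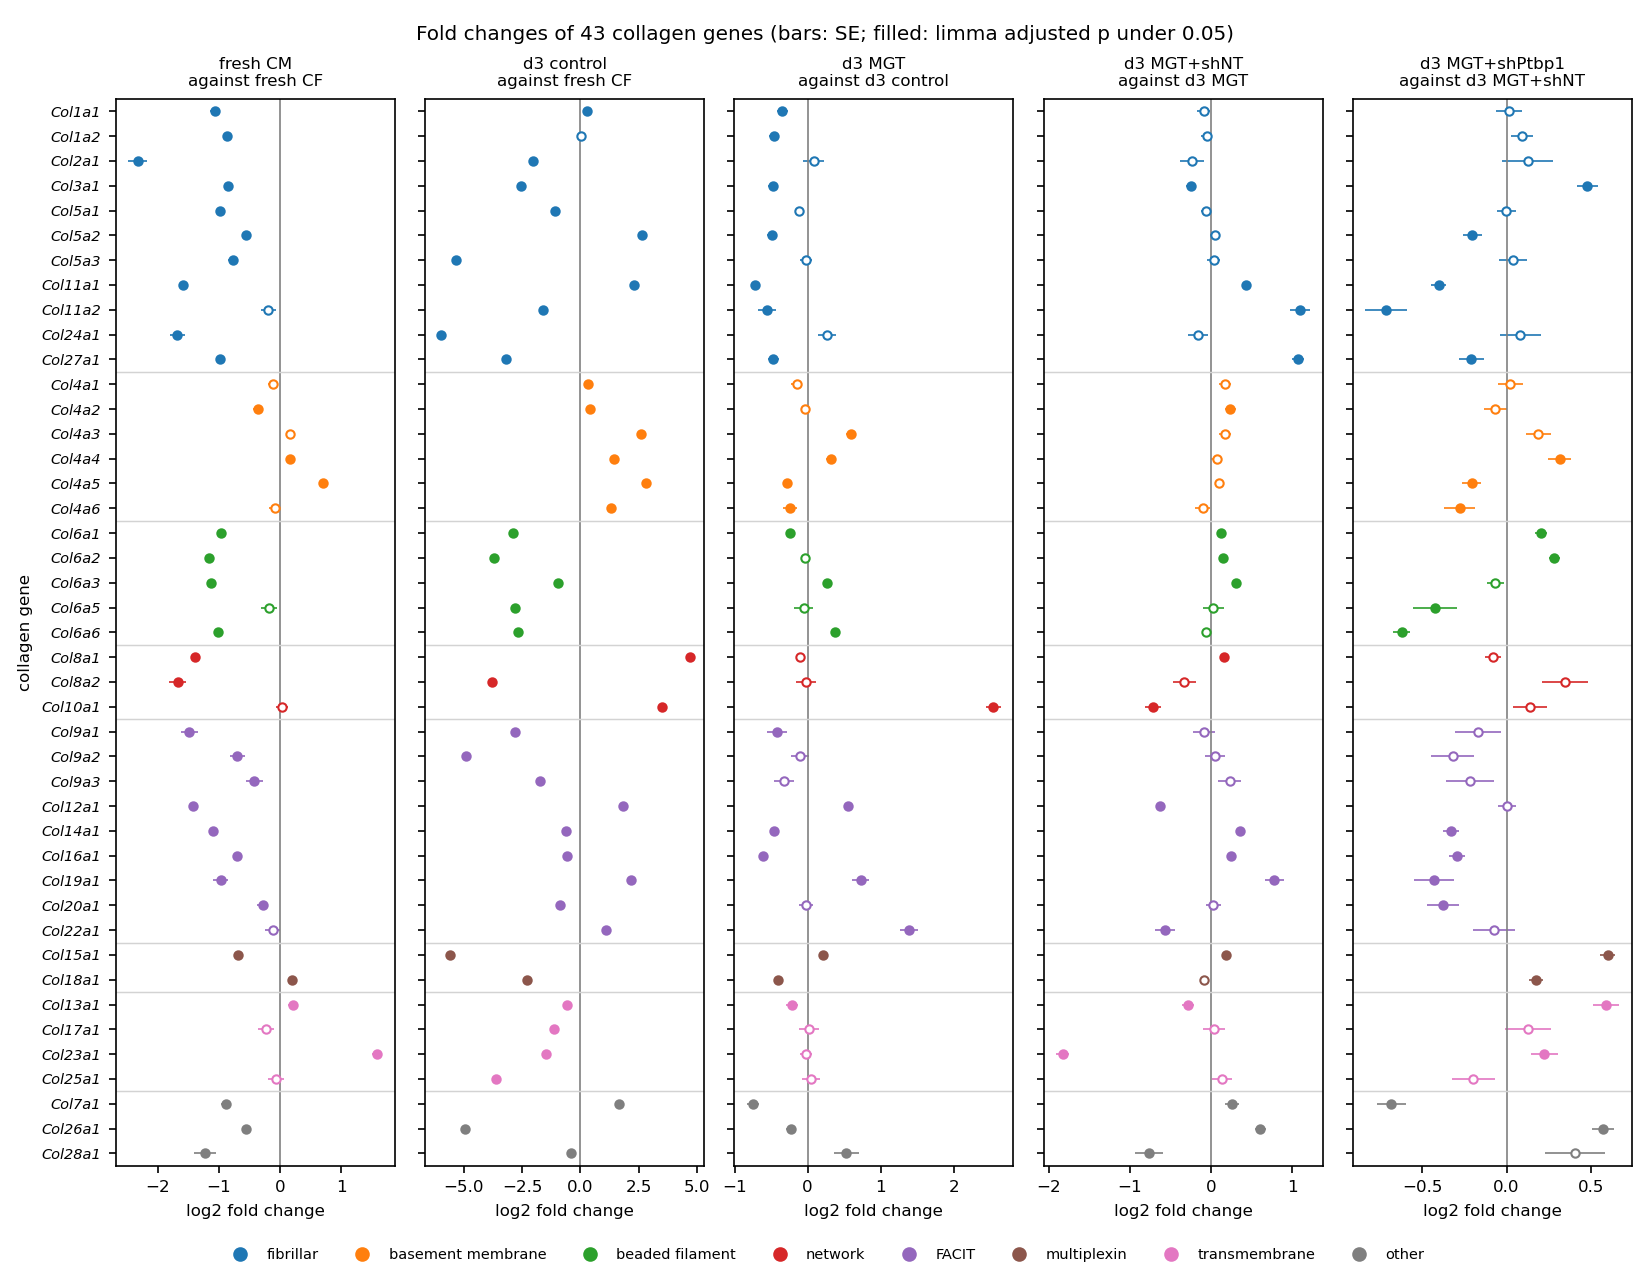
Log2 fold changes (horizontal axes) of the 43 tested collagen genes (vertical axis, by class) in the 5 comparisons, with bars for the standard error and filled points for a limma adjusted p under 0.05. Control cultures against fresh fibroblasts spanned -6.00 for Col24a1 to 4.72 for Col8a1, a wider range than in the other 4 comparisons.

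Of the 11 fibrillar genes, 3 rose and 7 fell in control cultures. Col3a1 was 5.86-fold lower (log2 fold change -2.55, SE 0.06, adjusted p = 5.04e-18, limma) and Col5a1 2.15-fold lower (log2 fold change -1.10, SE 0.06, adjusted p = 6.38e-13). Col5a2 was 6.21-fold higher (log2 fold change 2.63, SE 0.06, adjusted p = 7.26e-19). Col3a1 and Col5a2 are neighbours on chromosome 1 that point at each other, with 24614 bases between their ends, and they moved in opposite directions. Col11a1, a chain that can pair with type V chains, read 103 and 105 in fresh fibroblasts and 501 and 533 in control cultures (log2 fold change 2.30, SE 0.05, adjusted p = 1.67e-19). Of 2 minor chains, Col5a3 went from 193 and 193 to 4.23 and 4.42 (log2 fold change -5.33, SE 0.08, adjusted p = 3.49e-21), and Col24a1 from 48.5 and 49.7 to 0.237 and 0.316 (log2 fold change -6.00, SE 0.12, adjusted p = 2.87e-19), the latter on 22 and 28 reads. Col1a1 rose slightly (log2 fold change 0.27, SE 0.08, adjusted p = 0.00295), a call lost without fresh fibroblast replicate 2 (adjusted p = 0.0527) or control replicate 2 (0.0528). Col1a2 did not pass (log2 fold change 0.03, SE 0.07, adjusted p = 0.718), and its sign turned to -0.09 with CPM as deposited, which shifts the median of all genes by -0.10.

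The 6 type IV genes all rose, from 0.34 for Col4a1 to 2.81 for Col4a5 on the log2 scale, with a median of 1.36. Col4a5, mutated in X-linked Alport syndrome, read 73.2 and 70.8 in fresh fibroblasts and 477 and 543 in control cultures (log2 fold change 2.81, SE 0.06, adjusted p = 2.95e-19, limma). Col4a3, another Alport gene, went from 6.69 and 7.11 to 40.2 and 49.1 (log2 fold change 2.60, SE 0.07, adjusted p = 5.66e-17). The type IV genes lie in 3 head-to-head pairs, with starts 21 bases apart for Col4a1 and Col4a2 on chromosome 8, 72 for Col4a3 and Col4a4 on chromosome 1, and 1309 for Col4a5 and Col4a6 on chromosome X. Col4a4 rose by 1.42 and Col4a6 by 1.31. The starts of Col4a1 and Col4a2 overlap on opposite strands, and whether counting used strand is not given in the sources used here. A few reads there may be shared.

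Outside those classes, Col8a1 was 26.8-fold higher (log2 fold change 4.72, SE 0.05, adjusted p = 8.39e-24, limma), the largest increase among members that reached 10 scaled CPM in either group. Its type VIII partner Col8a2 went the other way, from 12.9 and 14.0 to 0.431 and 0.565 (log2 fold change -3.81, SE 0.14, adjusted p = 1.96e-15). Col10a1 rose from a few reads to 517 and 553 reads (log2 fold change 3.5, SE 0.10, adjusted p = 5.34e-17). Among type VI chains, Col6a2 was 13.2-fold lower (log2 fold change -3.72, SE 0.03, adjusted p = 2.45e-24) and Col6a1 7.46-fold lower (log2 fold change -2.90, SE 0.04, adjusted p = 2.06e-22), while Col6a3 fell less (log2 fold change -0.96, SE 0.05, adjusted p = 3.94e-13). Col15a1 was 48.9-fold lower (log2 fold change -5.60, SE 0.05, adjusted p = 6.29e-25) and Col18a1 4.86-fold lower (log2 fold change -2.28, SE 0.04, adjusted p = 6.59e-20). Col26a1, a short collagen with an EMI domain, went from 128 and 122 to 3.5 and 3.52 (log2 fold change -4.97, SE 0.07, adjusted p = 4.28e-22), and the type IX chain Col9a2 from 43.1 and 43.3 to 1.13 and 0.824 (log2 fold change -4.89, SE 0.13, adjusted p = 1.16e-17). The fresh and control libraries did not overlap for any of these genes, which held for 42 of the 43 tested members. The share over all genes was not computed.

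Of 7 fibroblast markers 2 rose and 3 fell here, with a sum of 1457 to 1497 in control cultures against 2472 to 2492 in fresh fibroblasts. Endothelial markers fell in 8 of 8, with a sum of 3175 to 3225 in fresh fibroblasts and 122 to 127 in control cultures, and no marker of that list was at 0 in every library. Macrophage markers rose in 6 of 7, from a sum of 846 to 849 to one of 3306 to 3542. The summed smooth muscle and pericyte markers went from 1383 to 1411 up to 7644 to 7897, with 4 genes higher and 4 lower of 8. The log2 fold changes of that list ran from -6.90 to 4.16 with a median of -0.99, so its sum does not stand for the whole list. Of 8 cardiomyocyte markers 6 fell and 2 rose, with a median log2 fold change of -3.41. Their sum was nevertheless higher, at 2386 to 2605 against 1540 to 1566 in fresh fibroblasts, so it does not reflect most of its members. The part of these cells in the collagen differences was not tested.

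The counts for genes that act on collagen chains stand beside 43.5% of all genes called higher and 43.4% called lower in control cultures. Of 15 tested hydroxylation genes, 9 rose and 4 fell: P4ha1, a catalytic subunit of prolyl 4-hydroxylase, went from 91.7 ± 1.28 to 430.3 ± 0.492 scaled CPM (mean ± SD, n = 2), and Plod2, the lysyl hydroxylase of telopeptides, from 77.3 ± 1.34 to 331 ± 4.40. Glt25d2, a collagen galactosyltransferase, fell (-4.46). Of 13 folding and secretion genes, 10 rose and 2 fell, led by Serpinh1, the collagen chaperone HSP47, at 2291 ± 9.85 against 1037 ± 15.2. Of 5 crosslinking genes, 3 rose and 1 fell, with Lox at 885 ± 51.9 against 142 ± 0.772. Of 8 propeptide cleavage genes, 2 rose and 6 fell, among them Adamts14 at 56.0 ± 5.34 against 154 ± 0.0690. Of 9 collagen receptors, 6 rose and 3 fell, with the integrin chain Itga11 changed by 2.51 and Ddr1 by 1.86. Of 10 basement membrane partners of type IV, 2 rose and 8 fell: Nid2, a nidogen, rose by 2.60, and the laminin chains Lama4 and Lamc1 changed by -2.04 and -1.34. Of 9 degradation genes, 5 rose and 2 fell, including the collagenase Mmp8 (2.92) and the inhibitor Timp1 (2.65).

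The cardiomyocyte preparation, compared with fresh fibroblasts, had lower levels of most collagens. Most fibrillar, beaded filament and FACIT genes fell, while of the 6 type IV genes 1 fell and 2 rose. Of 43 members, 5 were called higher and 29 lower, with 9 not passing, while over all genes 76.9% were called, 35.2% higher and 41.7% lower (limma). The median member changed by -0.71 against -0.05 for all genes. At least 2-fold, 1 member rose and 13 fell, against 8.26% and 4.0% of all genes. Fresh fibroblasts are the reference of this comparison and of the one with control cultures.

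Of the 11 fibrillar genes 10 fell and none rose, with a median of -0.98. Col1a1 (log2 fold change -1.07, SE 0.08, adjusted p = 2.74e-10, limma) and Col3a1 (log2 fold change -0.86, SE 0.06, adjusted p = 3.31e-10) fell, each without overlap between groups, as did Col1a2 (-0.88), Col5a1 (-0.99) and Col5a2 (-0.56). Among fibrillar genes that reached 10 scaled CPM, the largest falls were those of Col24a1, at 48.5 and 49.7 in fibroblasts against 15.0 and 14.9 (log2 fold change -1.68, SE 0.12, adjusted p = 2.90e-10), and Col11a1, at 103 and 105 against 33.5 and 34.8 (log2 fold change -1.60, SE 0.05, adjusted p = 2.15e-16). Groups did not overlap in 40 of the 43 tested members here, and the share over all genes was not computed. Of the type VI genes 4 of 5 fell, among them Col6a1 (-0.96), Col6a2 (-1.16) and Col6a3 (-1.14). Of the FACIT genes 8 of 9 fell, with Col12a1, a fibril-surface chain, at 195 and 194 in fibroblasts and 71.8 and 72.8 in the cardiomyocyte preparation (log2 fold change -1.42, SE 0.05, adjusted p = 1.85e-14). Both type VIII chains fell: Col8a1 (log2 fold change -1.39, SE 0.05, adjusted p = 3.68e-15) and Col8a2, at 12.9 and 14.0 in fibroblasts against 3.55 and 4.16 (log2 fold change -1.68, SE 0.14, adjusted p = 1.66e-09).

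Of the 6 type IV genes 2 rose and 1 fell, and their median was 0.04. Col4a5 read 73.2 and 70.8 in fibroblasts and 118 and 118 in the cardiomyocyte preparation (log2 fold change 0.71, SE 0.06, adjusted p = 1.50e-09, limma). Col4a2 fell (log2 fold change -0.37, SE 0.07, adjusted p = 5.91e-05), whereas Col4a1 did not pass (log2 fold change -0.12, SE 0.07, adjusted p = 0.132), although it did with edgeR on recovered reads (adjusted p = 0.0253). Col4a4, at 13.9 and 15.1 in fibroblasts against 16.4 and 16.2, passed narrowly (log2 fold change 0.17, SE 0.07, adjusted p = 0.0297), and 6 alternatives ended the call (adjusted p from 0.0633 to 0.276), among them leaving out fresh fibroblast replicate 1 or either cardiomyocyte replicate. The largest increase was that of Col23a1, a transmembrane collagen, from 24.3 and 26.2 to 78.2 and 75.9 (log2 fold change 1.59, SE 0.08, adjusted p = 1.64e-12). Col13a1, a transmembrane collagen of cell junctions, was slightly higher at 13.3 and 13.7 against 11.3 and 11.9 (log2 fold change 0.21, SE 0.08, adjusted p = 0.0189), a call lost without fresh fibroblast replicate 1 (adjusted p = 0.122) or cardiomyocyte replicate 2 (0.0836). Of the multiplexins, Col18a1 rose (log2 fold change 0.19, SE 0.04, adjusted p = 4.25e-04) and Col15a1 fell (log2 fold change -0.68, SE 0.05, adjusted p = 1.29e-10).

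Beside these differences, 7 of 7 fibroblast markers fell and 8 of 8 cardiomyocyte markers rose in the cardiomyocyte preparation. That fibroblast list includes Thy1, on which the reference cells were sorted. Of 8 endothelial markers 6 rose, with a sum of 4120 to 4126 against 3175 to 3225 in fresh fibroblasts. Smooth muscle and pericyte markers fell in 7 of 8 and rose in 1 (sum 812 to 813 against 1383 to 1411), and of 7 macrophage markers 5 fell and 1 rose (597 to 604 against 846 to 849). Their part in the collagen differences was not tested. Of the hydroxylation genes 0 of 15 rose and 12 fell, of the folding and secretion genes 0 of 13 and 10, and of the crosslinking genes 0 of 5 and 5, while 35.2% of all genes were called higher and 41.7% lower. Loxl1, a crosslinking enzyme, stood at 246 ± 14.5 against 635 ± 32.6 (mean ± SD, n = 2), and Creb3l1, a transcription factor of the secretory pathway, at 68.4 ± 1.73 against 143 ± 0.174. Of 9 collagen receptors 1 rose and 8 fell, with the receptor kinase Ddr2, also on the fibroblast list, at 93.6 ± 1.26 against 248 ± 1.05. Of 8 propeptide cleavage genes 2 rose and 6 fell (Adamts2, -1.29), of 10 basement membrane partners none rose and 8 fell (Lamc1, -0.70), and of 9 degradation genes 3 rose and 6 fell (Mmp9, 1.74).

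With MGT, compared with control cultures, 7 of 11 fibrillar genes fell and none rose. Col10a1 rose most, and Col4a3, Col4a4, Col12a1 and 2 type VI genes also rose. Of 43 members, 10 were called higher and 17 lower, with 16 not passing, while over all genes 35.6% were called, 17.9% higher and 17.7% lower (limma). The median member changed by -0.11 against -0.01 for all genes. At least 2-fold, 2 members rose and none fell, against 0.773% and 0.107% of all genes. The control cultures are shared with the comparison against fresh fibroblasts.

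Among fibrillar genes, Col1a1 (log2 fold change -0.35, SE 0.08, adjusted p = 0.00165, limma), Col1a2 (log2 fold change -0.46, SE 0.07, adjusted p = 2.19e-05), Col3a1 (log2 fold change -0.47, SE 0.06, adjusted p = 8.75e-06) and Col5a2 (log2 fold change -0.49, SE 0.06, adjusted p = 1.77e-06) all fell with MGT, and the 2 MGT libraries lay below both controls for each. Col11a1 read 501 and 533 in control cultures and 306 and 319 with MGT (log2 fold change -0.73, SE 0.05, adjusted p = 5.40e-10). Col5a1 did not pass (log2 fold change -0.11, SE 0.06, adjusted p = 0.136). Without control replicate 1, Col5a1, Col4a1 and Col8a1 were called lower, at adjusted p of 0.00535, 0.00803 and 0.00206. Of the other structural roles, Col7a1, the anchoring fibril chain, went from 41.8 and 46.1 to 27.4 and 24.6 (log2 fold change -0.74, SE 0.09, adjusted p = 1.63e-06). The FACIT chain Col16a1 went from 191 and 212 to 136 and 128 (log2 fold change -0.61, SE 0.05, adjusted p = 1.16e-08). Col18a1 (-0.40) and Col6a1 (-0.24) also fell. MGT and control libraries did not overlap in 34 of the 43 tested members, and the share over all genes was not computed.

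Col10a1 was 6.23-fold higher with MGT (log2 fold change 2.54, SE 0.10, adjusted p = 8.54e-13, limma), on 3078 and 3344 reads against 517 and 553 in control cultures. Beside it, the sum of 7 cartilage markers was 71.4 to 71.7 with MGT and 67.8 to 78.5 in control cultures, with 0 of 5 tested markers higher and 2 lower. Col12a1 went from 651 and 739 to 987 and 1041 (log2 fold change 0.55, SE 0.05, adjusted p = 2.50e-07). Of the type IV genes, Col4a3, from 40.2 and 49.1 to 63.6 and 71.1 (log2 fold change 0.59, SE 0.07, adjusted p = 5.11e-06), and its neighbour Col4a4, from 37.7 and 41.6 to 48.2 and 50.8 (log2 fold change 0.32, SE 0.07, adjusted p = 9.57e-04), rose. Col4a5 (-0.28) and Col4a6 (-0.24) fell, and Col4a1 (-0.15, adjusted p = 0.123) and Col4a2 (-0.03, adjusted p = 0.765) did not pass. Of type VI, Col6a3 (log2 fold change 0.27, SE 0.05, adjusted p = 2.38e-04) and Col6a6, from 58.2 and 61.0 to 76.7 and 78.6 (log2 fold change 0.38, SE 0.05, adjusted p = 7.27e-06), rose. Col15a1 also rose (0.21), at a level far below that of the fresh fibroblasts. The other member at least 2-fold higher was Col22a1, a chain of tissue junctions, from 1.15 and 1.02 to 3.89 and 3.39 (1.38).

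**Figure D4:**
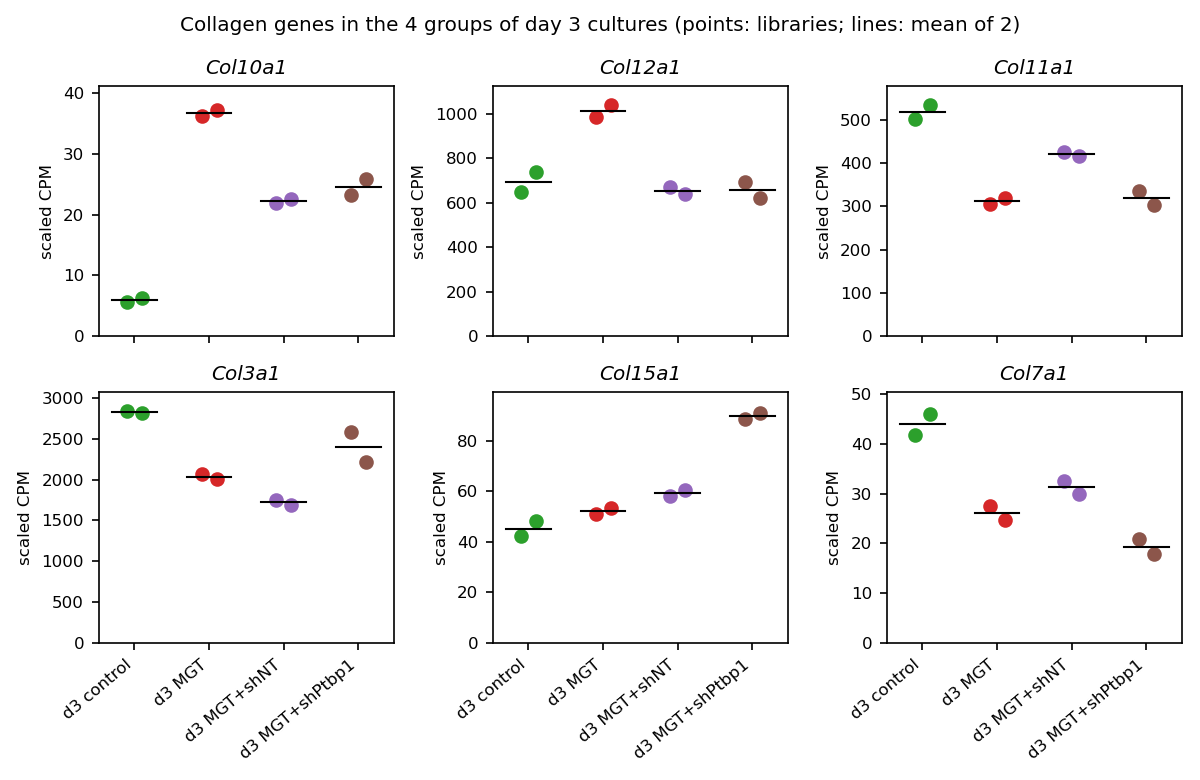
Scaled CPM (vertical axes) of Col10a1, Col12a1, Col11a1, Col3a1, Col15a1 and Col7a1 in the 2 libraries (points) of each of the 4 day 3 groups (horizontal axes). Col10a1 stood at 36.3 and 37.2 with MGT against 5.57 and 6.24 in control cultures, and Col15a1 at 88.8 and 91.2 with shPtbp1 against 58.1 and 60.5 with shNT.

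The list counts below stand beside 17.9% of all genes called higher and 17.7% called lower with MGT. With MGT, the sum of fibroblast markers was 1406 to 1483 against 1457 to 1497 in control cultures, with 2 higher and 5 lower of 7. That of cardiomyocyte markers was 3355 to 3532 against 2386 to 2605, with 6 higher and 1 lower of 8. Endothelial markers fell in 6 of 8 and rose in none (sum 85.4 to 93.2 against 122 to 127), and of 7 epicardial markers 4 fell and 1 rose (130.1 to 133 against 159 to 162). Their part in the collagen differences was not tested. All 5 crosslinking genes fell, among them Loxl1 (327 ± 4.99 against 474 ± 31.4, mean ± SD, n = 2) and Lox (734 ± 4.04 against 885 ± 51.9). The other lists moved both ways. Of 15 hydroxylation genes 4 rose (Glt25d2, 0.99) and 5 fell (P4ha2, -0.39). Of 13 folding and secretion genes 2 rose (Creb3l1, 0.37) and 3 fell (Serpinh1, -0.21). Of 8 propeptide cleavage genes 3 rose (Tll2, 1.36) and 3 fell (Tll1, -0.54). Of 9 receptors 3 rose (Itga2, 0.29) and 4 fell (Itga11, -0.80). Of 9 degradation genes 2 rose (Mmp13, 0.64) and 3 fell (Mmp2, -0.33). Glt25d2, Tll1, Tll2, Itga2 and Mmp13 lay below 10 scaled CPM in both groups. Of 10 basement membrane partners 4 rose and 2 fell, and Nid2 stood at 5237 ± 185 against 2590.2 ± 271.

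Adding the lentivirus with the non-targeting hairpin to MGT also moved collagens, and more members rose than fell. Col27a1, Col19a1, Col11a1 and Col14a1 rose, and Col10a1, Col12a1 and Col3a1 fell. Of 43 members, 14 were called higher and 7 lower, with 22 not passing, while over all genes 44.7% were called, 24.6% higher and 20.1% lower (limma). The median member changed by 0.05 against 0.02 for all genes. The MGT libraries are shared with the comparison against control cultures, so for Col10a1, Col12a1 and Col11a1 the same 2 MGT libraries enter both differences.

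Col27a1, a fibrillar chain of cartilage, went from 9.46 and 8.40 with MGT to 18.8 and 19.9 with shNT added (log2 fold change 1.08, SE 0.07, adjusted p = 6.59e-10, limma). Col11a1 went from 306 and 319 to 425 and 416 (log2 fold change 0.43, SE 0.05, adjusted p = 2.57e-07), and the FACIT chains Col19a1 from 8.71 and 9.76 to 16.2 and 16.2 (log2 fold change 0.78, SE 0.12, adjusted p = 2.32e-05) and Col14a1 from 626 and 645 to 831 and 792 (log2 fold change 0.35, SE 0.05, adjusted p = 6.41e-06). The 3 tested type VI genes of highest level rose, Col6a3 most (log2 fold change 0.31, SE 0.05, adjusted p = 3.91e-05), and Col6a1 (0.13) and Col6a2 (0.14) less. Col10a1 fell (log2 fold change -0.71, SE 0.10, adjusted p = 1.00e-05), as did Col12a1, from 987 and 1041 to 670.3 and 641 (log2 fold change -0.63, SE 0.05, adjusted p = 1.47e-08), and Col3a1 (log2 fold change -0.24, SE 0.06, adjusted p = 0.00398). Groups did not overlap for any of these genes, which held for 34 of the 43 tested members. The share over all genes was not computed. Small increases of Col4a2 (0.24), Col8a1 (0.16) and Col15a1 (0.18) lost their calls without MGT replicate 1, at adjusted p of 0.0658, 0.159 and 0.0537. Without a replicate of shNT, those of Col4a2 (replicate 1, adjusted p = 0.0634), Col6a1 (replicate 1, 0.0853) and Col8a1 (replicate 2, 0.0600) were lost. Below 10 scaled CPM with shNT, Col23a1 went from 9.0 and 8.49 to 1.94 and 2.27 (log2 fold change -1.83, SE 0.08, adjusted p = 9.13e-13) and Col11a2, a cartilage chain, from 1.83 and 1.69 to 4.45 and 4.24 (log2 fold change 1.10, SE 0.12, adjusted p = 6.13e-07), and these with Col27a1 were the members changed at least 2-fold, against 0.272% of all genes higher and 3.24% lower by that much. Col1a1 (-0.09, adjusted p = 0.362), Col1a2 (-0.05, adjusted p = 0.559) and Col5a1 (-0.07, adjusted p = 0.376) did not pass.

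With shNT added, 24.6% of all genes were called higher and 20.1% lower, and the list counts below stand beside these shares. Macrophage markers fell in 7 of 7 here, with a sum of 1295 to 1353 against 3507 to 3607 with MGT alone. Fibroblast markers rose in 5 of 7, with a sum of 1625 in both shNT libraries against 1406 to 1483. Of 8 endothelial markers 6 rose and 1 fell (105 to 111 against 85.4 to 93.2). Their part in the collagen differences was not tested. Of 15 hydroxylation genes 7 rose and 2 fell, with P4ha3 at 45.6 ± 0.529 against 26.2 ± 1.09 (mean ± SD, n = 2). Of 5 crosslinking genes 3 rose and 1 fell, with Loxl2 higher (0.37) and Lox lower (-0.34). Of 9 collagen receptors 5 rose and 2 fell: Itga11 stood at 50.3 ± 0.745 against 22.3 ± 2.06, and Lair1, an inhibitory collagen receptor of leukocytes, changed by -1.90. Folding and secretion genes gave 4 higher and 1 lower of 13, propeptide cleavage genes 3 and 1 of 8, basement membrane partners 4 and 3 of 10, and degradation genes 3 and 3 of 9, with Mmp8 at -2.44.

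With the Ptbp1 hairpin, compared with the non-targeting hairpin under MGT, Col15a1, Col3a1 and the type VI chains Col6a1 and Col6a2 rose, and Col7a1, Col6a6 and 4 FACIT genes fell. No member was called with a change of 2-fold or more, against 0.651% of all genes. Of 43 members, 9 were called higher and 13 lower, with 21 not passing, while over all genes 34.8% were called, 16.7% higher and 18.1% lower (limma). The median member changed by -0.00, the same as for all genes. The shNT libraries are shared with the comparison against MGT alone.

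Col15a1 rose most among members above 10 scaled CPM (log2 fold change 0.60, SE 0.05, adjusted p = 1.49e-08, limma), and the other multiplexin, Col18a1, rose slightly (log2 fold change 0.18, SE 0.04, adjusted p = 0.00313), a call lost without shNT replicate 2 (adjusted p = 0.0633) or shPtbp1 replicate 1 (0.0652). Col3a1 was the only fibrillar gene called higher (log2 fold change 0.48, SE 0.06, adjusted p = 8.67e-06), while 4 fibrillar genes fell, Col11a1 most among those above 10 scaled CPM, from 425 and 416 to 336 and 302 (log2 fold change -0.40, SE 0.05, adjusted p = 1.38e-06). Col5a2 fell slightly (log2 fold change -0.20, SE 0.06, adjusted p = 0.00933), a call lost without shNT replicate 1 (adjusted p = 0.0734) or shPtbp1 replicate 2 (0.125). Col1a1 (0.01, adjusted p = 0.916), Col1a2 (0.09, adjusted p = 0.292) and Col5a1 (-0.00, adjusted p = 0.991) did not pass. Of type VI, Col6a2 (log2 fold change 0.28, SE 0.03, adjusted p = 3.59e-06) and Col6a1 (log2 fold change 0.20, SE 0.04, adjusted p = 2.19e-04) rose, Col6a3 did not pass (-0.07, adjusted p = 0.317), and Col6a6 fell from 76.9 and 72.1 to 51.1 and 45.6 (log2 fold change -0.62, SE 0.05, adjusted p = 1.76e-08). Of type IV, Col4a4 rose from 52.6 and 51.5 to 70.2 and 59.9 (log2 fold change 0.31, SE 0.07, adjusted p = 0.00111) and Col4a5 and Col4a6 fell (-0.21 and -0.28), while Col4a1 (0.02, adjusted p = 0.861) and Col4a2 (-0.07, adjusted p = 0.487) did not pass. Col8a1 (-0.08, adjusted p = 0.202) and Col10a1 (0.14, adjusted p = 0.304) did not pass.

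Col7a1 had the largest decrease above 10 scaled CPM, from 32.6 and 30.0 with shNT to 20.8 and 17.9 with shPtbp1 (log2 fold change -0.68, SE 0.09, adjusted p = 5.00e-06, limma). Of the 9 FACIT genes 4 fell and none rose, among them Col19a1, from 16.2 and 16.2 to 11.8 and 12 (log2 fold change -0.43, SE 0.12, adjusted p = 0.00809), and Col14a1, from 831 and 792 to 683 and 613 (log2 fold change -0.33, SE 0.05, adjusted p = 2.96e-05). Groups did not overlap for these genes, which held for 35 of the 43 tested members. The share over all genes was not computed. Below 10 scaled CPM, Col13a1 (0.59) and Col26a1 (0.57) rose and Col11a2 (-0.71) fell. Gene-level counts say nothing on the exons used within these collagens. Beside these changes, cardiomyocyte markers rose in 6 of 8 (sum 4173 to 4484 against 3481 to 3752 with shNT), fibroblast markers rose in 4 of 7 (1764 to 1796 against 1625) and of 7 macrophage markers 5 fell and 1 rose (1475 to 1523 against 1295 to 1353). Over all genes, 16.7% were called higher and 18.1% lower. Of 7 epicardial markers 4 fell and 1 rose (157 to 167 against 169 to 171), and of 5 tested cartilage markers 2 fell and none rose (54.0 to 57.0 against 72.3 to 75.4). Their part in the collagen differences was not tested.

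The genes that act on collagens moved both ways with the Ptbp1 hairpin, beside 16.7% of all genes called higher and 18.1% called lower. Of 15 hydroxylation genes 4 rose and 4 fell, and the prolyl 3-hydroxylases did not move together. Lepre1 was higher, at 197 ± 2.55 against 126 ± 0.435 (mean ± SD, n = 2). Leprel1 was lower, at 81.1 ± 2.19 against 144 ± 3.98, as was Leprel2, at 69.9 ± 0.844 against 83.4 ± 0.0930. Of 13 folding and secretion genes 3 rose and 2 fell, with Creb3l1 changed by 0.47 and Pepd, the dipeptidase that recycles proline, by -0.98. Of 5 crosslinking genes 1 rose and 3 fell, Loxl2 most (-0.49). None of 9 collagen receptors rose and 5 fell, among them Itga11 (-0.30). Propeptide cleavage genes gave 3 higher and 3 lower of 8, degradation genes 2 and 1 of 9 (Timp3, 0.31), and basement membrane partners 2 and 3 of 10 (Nid2, 0.40).

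Chains that assemble into one trimer did not always move together. The ratios below divide the reads of one gene by those of another without a length correction, so a change between groups can be read and the level of a ratio cannot, and no test was made. The ratio of Col5a1 to Col5a2 was 3.33 and 3.31 in fresh fibroblasts, 2.43 and 2.50 in the cardiomyocyte preparation and 0.236 to 0.351 in the 8 day 3 libraries. For Col6a3 to Col6a1 it was 0.448 and 0.444 in fresh fibroblasts, 1.63 and 1.78 in control cultures and 2.72 and 2.77 with MGT and shNT. Both ratios differed between fresh and day 3 libraries by far more than between replicates. Col6a1 to Col6a2 moved less, from 0.878 and 0.886 in fresh fibroblasts to 1.55 and 1.57 in control cultures. Col1a1 to Col1a2 was 1.20 and 1.16 in fresh fibroblasts, 1.34 and 1.46 in control cultures and 1.51 and 1.52 with MGT. Of the head-to-head pairs, Col4a1 to Col4a2 was the steadiest, at 1.40 and 1.39 in fresh fibroblasts, 1.68 and 1.64 in the cardiomyocyte preparation and 1.19 and 1.19 with MGT and shNT. Col4a3 to Col4a4 went from 0.481 and 0.470 in fresh fibroblasts to 1.07 and 1.18 in control cultures, and Col4a5 to Col4a6 from 5.55 and 5.63 to 15.6 and 15.6. Type III against type I, as Col3a1 to Col1a1, stood at 2.20 and 2.26 in fresh fibroblasts, 0.346 and 0.286 in control cultures, 0.258 and 0.261 after MGT plus shNT, and 0.368 and 0.347 after MGT plus shPtbp1.

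**Figure D5:**
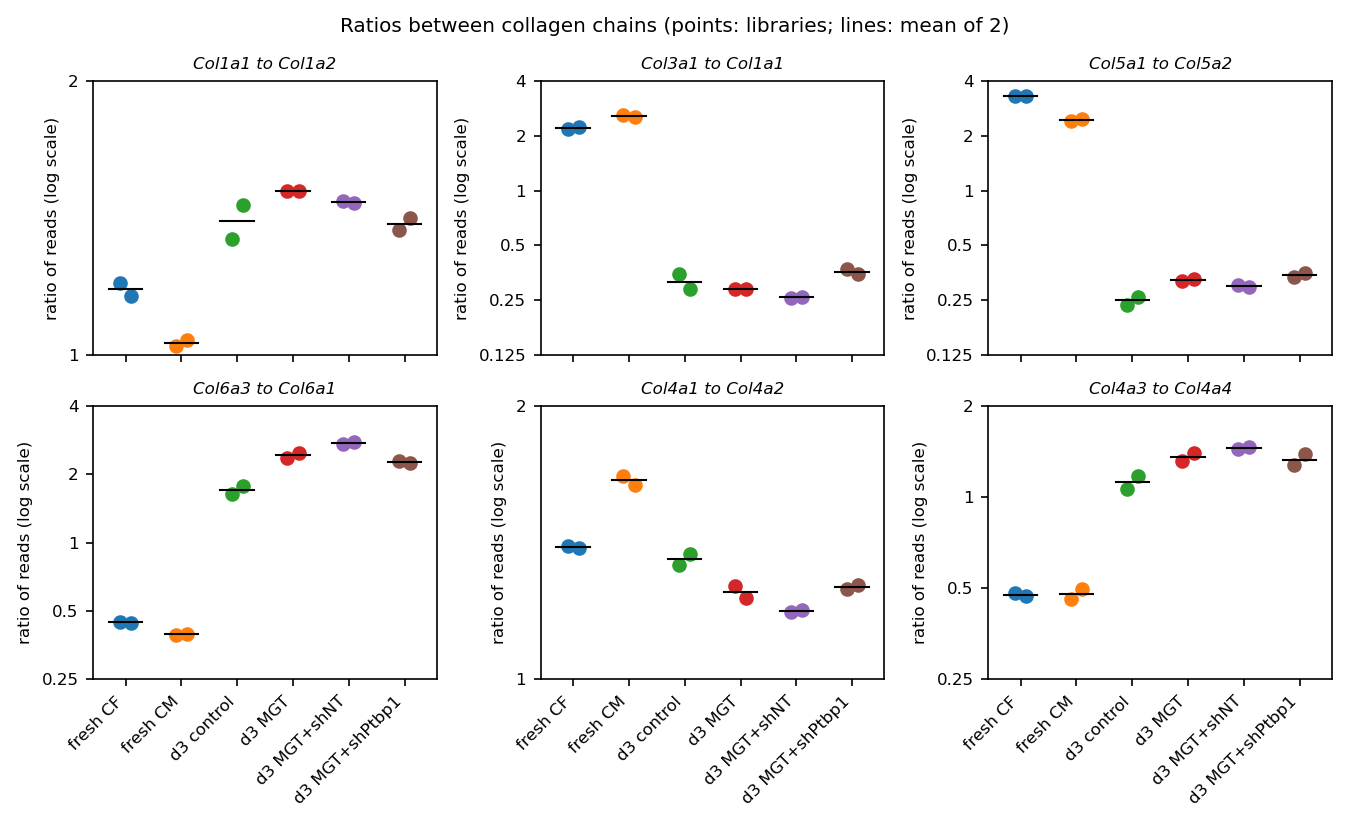
Ratios of reads (vertical axes, log scale) for 6 pairs of collagen chains in the 12 libraries (points) by group (horizontal axes), with lines at the group means. The mean of Col5a1 to Col5a2 went from 3.32 in fresh fibroblasts to 0.249 in control cultures, and that of Col6a3 to Col6a1 from 0.446 to 1.71.

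Across the 5 comparisons, 11 members were called in every one: Col3a1, Col11a1 and Col27a1 of the fibrillar class, Col6a1, Col13a1, Col15a1, Col26a1, Col7a1, and the FACIT chains Col14a1, Col16a1 and Col19a1. Another 11 were called in 4 comparisons, 8 in 3 and 10 in 2. Col17a1, Col25a1 and Col4a1 were each called in 1 by the main limma fit, that of control cultures against fresh fibroblasts. With edgeR on recovered reads, Col4a1 was also called in the cardiomyocyte preparation (adjusted p = 0.0253), with MGT (0.0327) and with shNT added (0.0368). Every comparison shares a group with at least 1 other, so these counts are not independent of one another. Between 34.8% and 86.9% of all genes were called in each comparison. The share of all genes called in several comparisons was not computed, so these counts do not set the collagens apart from other genes.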

How the data were processed

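Per the labels' protocols, the 12 libraries were made from polyadenylated RNA with a kit that keeps strand. The submitters' processing notes name FastQC, TopHat2 2.1.0, HTSeq 0.6.1p1 and mm10, with no roles. Annotation and strand setting: not given in the sources used here. The deposited table holds CPM per gene. Whole read counts were recovered from the deposited CPM (100% of values within 0.1 reads), and totalled 49320858 to 94005212 per library.

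CPM was divided by a median-of-ratios factor (0.966 to 1.06), and log2(value + 0.5) was modelled by limma 3.58.1 (R 4.3.3; 6 group means, trended variance) over the 13977 genes that reached 1 CPM in 2 or more libraries. Benjamini-Hochberg adjustment ran over all of these, with a threshold of 0.05. Fold changes on this scale understate the change of low genes. With 2 libraries a group, the smallest exact permutation p is 0.333, and no such test was used. edgeR 4.0.16 on the recovered counts was an alternative. Scripts were tested on simulated data.

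Named were the 5 largest called increases and decreases with at least 10 scaled CPM in each comparison, 14 members chosen by role, and up to 3 members of each pathway list. Low members named besides were chosen after their values were seen. Members and lists were chosen with earlier results of these data known. Gene positions and exon lengths came from GENCODE vM21 and promoters from RefSeq. Figures were drawn with matplotlib 3.10.9.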

Additional observations from a re-analysis of the deposited data

How the results depend on the processing

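Of the counts of called collagens, those of control cultures against fresh fibroblasts (14 to 15 higher, 24 to 27 lower), MGT against control cultures (8 to 11 and 14 to 18) and shNT added to MGT (11 to 16 and 5 to 9) stayed within 1.5 times their values under all alternatives run. For the cardiomyocyte preparation, the members called higher numbered 3 to 5 when each replicate was left out, with 3 without fresh fibroblast replicate 1 and without cardiomyocyte replicate 2. For shPtbp1 against shNT, the members called lower were 8 with no filter on low values and 8 to 13 when each replicate was left out, with 8 without shNT replicate 1. With the replicate block the counts higher and lower were 6 and 29, 15 and 27, 10 and 17, 14 and 7, and 10 and 13, in the order cardiomyocyte preparation, control cultures, MGT, shNT and shPtbp1, so it moved no count by over 1.5 times. The libraries share only a replicate number: deviations of same-numbered libraries correlated at -0.136 to 0.162 over 15 pairs of groups.

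Without Col1a1, Col1a2 and Col3a1, collagens took 3.16% of reads in fresh fibroblasts, 2.09% in the cardiomyocyte preparation, 2.94% in control cultures, 2.56% with MGT, 2.81% with shNT and 2.69% with shPtbp1. From scaled CPM the collagen share was 6.02%, 3.60%, 4.01% and 4.17% in fresh fibroblasts, the cardiomyocyte preparation, MGT and shNT. With the longest transcript as length, fibrillar chains held 60.0%, 54.0%, 61.1%, 55.7%, 51.7% and 52.6% of the pool and type IV chains 17.3%, 25.1%, 30.6%, 34.7%, 38.4% and 37.8%, in the order of the 6 groups.

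Single members were followed under the alternatives in 103 results, those of the largest called changes and of the 14 members chosen by role. Low members named besides were not followed. Among the 103, the sign turned only where the main fit had not passed, and the cause was not tested. Leaving out each replicate in turn, Col10a1 in the cardiomyocyte preparation ranged from -0.0712 to 0.128, Col1a2 in control cultures from -0.0369 to 0.0948, and Col4a2 with MGT from -0.116 to 0.0526. With shPtbp1 the same ranges were -0.0496 to 0.0775 for Col1a1, -0.0246 to 0.0669 for Col4a1 and -0.0575 to 0.0539 for Col5a1. Col1a2 in control cultures gave -0.0860 with CPM as deposited, and Col5a1 with shPtbp1 gave 0.00117 with the 4 libraries alone and 0.0018 with edgeR. Of the values of these followed members under alternatives, 1288 kept direction and side of the threshold, 23 lost a call, 14 gained one and 13 turned. At these depths, members with under 10 reads in a library, such as Col25a1 in culture and Col10a1 in fresh cells, are limited by counting error.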
